A study of Mus musculus with 19 samples.

Results

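Hepatocytes take bile acids and other organic anions up from sinusoidal blood, pass them through the cell and secrete them into the bile canaliculus, and they can also return them to blood across the basolateral membrane. Transcripts of 10 genes for these steps were examined here, chosen by name with earlier results of these data known. The genes are rows of a count table that lists 31053 genes, of which 17068 had a count in at least 1 library. The sinusoidal uptake carriers are Slc10a1 (NTCP, the sodium-dependent bile acid carrier) and 3 organic anion transporting polypeptides, Slco1a1, Slco1a4 and Slco1b2. The canalicular pumps are Abcb11 (BSEP, the bile salt export pump), Abcb4 (MDR2, which moves phosphatidylcholine into bile), Abcc2 (MRP2, an exporter of conjugated organic anions such as bilirubin glucuronides) and Abcg5 (which exports sterols as a dimer with Abcg8). The basolateral exporters are Abcc3 (MRP3) and Abcc4 (MRP4), which carry conjugates and bile acids back to blood. In cholestasis and liver injury, uptake carriers are known to be lowered and basolateral exporters raised, and the bile acid receptor FXR, the receptors CAR and PXR and the stress-responsive factor NRF2 are known regulators of these genes.

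Liver RNA came from male C57BL6J mice that were 6 to 8 weeks old at the start, in 19 libraries. The vehicle group (5 libraries) received PBS, and no vector is named for it in the labels. The other groups received thioacetamide (TAA), a hepatotoxin that hepatocytes convert to reactive metabolites, for 12 weeks at rising doses, and at week 10 an AAV8 vector that expressed either GFP (AAV-GFP, 7 libraries) or miR-34b and miR-34c together (AAV-miR-34b/c, 7 libraries) from the hepatocyte-specific TBG promoter. Mice were killed 4 weeks after the vector, and so after the 12 weeks of TAA had ended. TAA and a vector therefore came together in both groups compared with vehicle, and their parts cannot be told apart there.

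Library totals ran from 2214073 to 5208405 counts. All 9 hepatocyte markers examined had counts in every group, and their summed level was 98167 to 119861 normalised CPM (counts scaled to a common library size) in vehicle-treated, 89464 to 109682 in AAV-GFP and 100592 to 154387 in AAV-miR-34b/c livers. Of the pairs of libraries within a group, 6 were close pairs, with a coefficient of variation beyond counting noise under a set cutoff of 0.2. It was 0.0812 to 0.171 for these, against 0.215 to 0.480 for the other 46 pairs. The close pairs were vehicle libraries 1 and 4, vehicle 3 and 5, AAV-GFP 1 and 2, and AAV-miR-34b/c 1 and 2, 3 and 4, and 5 and 7. They still differed by more than counting noise and were kept as separate libraries, and what summing them did to each call is given below; it left 3, 6 and 4 samples. Other libraries stood apart from their group over all genes. The same coefficient was 0.339 to 0.392 between AAV-GFP libraries 6 and 7 and libraries 1 to 4, 0.267 to 0.287 between them and library 5, and 0.132 to 0.262 among libraries 1 to 5. It was 0.346 to 0.480 between AAV-miR-34b/c libraries 1 and 2 and the other 5, and 0.0812 to 0.269 among those 5. Results without these pairs of libraries, an alternative chosen after seeing the data, are given beside the results they touch. Nothing in the labels says how the libraries of a group relate, so p-values measure the spread between these libraries.

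Uptake transcripts were lower, on average, and basolateral efflux transcripts higher in AAV-GFP livers of TAA-treated mice than in livers of vehicle-treated mice, while canalicular transcripts lay on either side of vehicle. The mean log2 CPM of the 4 uptake genes was 8.32 ± 0.21 (SD, n = 5) in vehicle-treated, 7.32 ± 0.34 (n = 7) in AAV-GFP and 6.62 ± 0.38 (n = 7) in AAV-miR-34b/c livers. For the 4 canalicular genes it was 7.42 ± 0.10, 7.43 ± 0.22 and 7.00 ± 0.16 in the same order. For the 2 basolateral genes it was 2.67 ± 0.35, 3.68 ± 0.42 and 3.08 ± 0.37. The difference between the uptake mean and the mean of all 6 efflux genes was 2.23 to 2.71 in vehicle-treated, 0.65 to 1.92 in AAV-GFP and 0.37 to 1.39 in AAV-miR-34b/c livers. Every library from TAA-treated mice was therefore below every vehicle library on this measure, and the 2 TAA groups overlapped. These class means are a description of the libraries and were not tested. Since the libraries are from whole liver, fewer hepatocytes and less RNA of a gene per hepatocyte cannot be told apart.

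**Figure D1:**
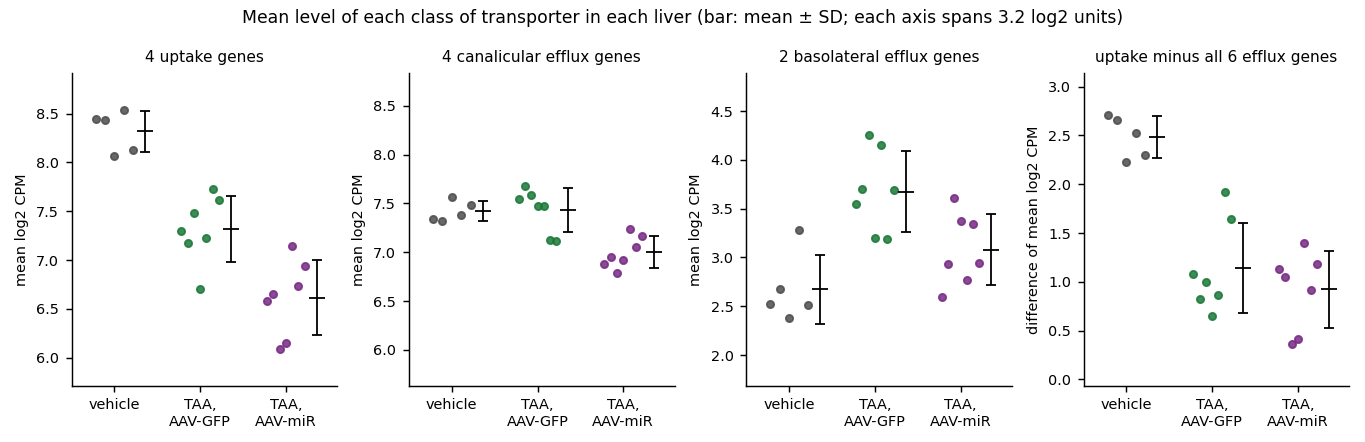
Mean log2 CPM of the 4 uptake, 4 canalicular and 2 basolateral genes, and the uptake mean minus the mean of all 6 efflux genes, for each library (points) of the 3 groups, with the mean ± SD as a bar; the axes are on the log2 scale and do not start at 0. The vehicle libraries lie between 2.23 and 2.71 in the last panel, above all libraries of both TAA groups.

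The letters upstream of these genes were read from RefSeq sequences of GRCm38.p6 that cover 250 bases before to 50 bases after a gene's start, 300 bases in all, which were found for 9 of the 10 genes. The 3 Slco genes lie together on chromosome 6, Slco1b2 at chr6:141629518-141686646 on the plus strand, Slco1a4 at chr6:141805440-141856199 and Slco1a1 at chr6:141907282-141946962 on the minus strand (GRCm38), whereas Slc10a1 is at chr12:80953183-80968705 on the minus strand. The windows of the 4 uptake genes are shown because these transcripts were all lower in AAV-miR-34b/c than in vehicle-treated livers, and that of Abcc2 because it holds an antioxidant response element core, the kind of element that NRF2 is known to bind. Capitals mark the letters searched on both strands. The antioxidant response element core was TGACNNNGC. The core of an IR-1 element, the kind that FXR is known to bind, was GGTCANTGA. The nuclear receptor half-site, which can overlap the IR-1 core, was read as AGGTCA. The half-site of the hepatocyte factor HNF1 was read as GTTAAT, and the TATA box of core promoters as TATAAA. The windows are chr12:80968656-80968955, minus strand, for the first of 2 listed starts of Slc10a1, chr6:141946913-141947212, minus strand, for Slco1a1, chr6:141856171-141856470, minus strand, for Slco1a4, chr6:141629268-141629567, plus strand, for Slco1b2 and chr19:43782058-43782357, plus strand, for Abcc2.
Slc10a1: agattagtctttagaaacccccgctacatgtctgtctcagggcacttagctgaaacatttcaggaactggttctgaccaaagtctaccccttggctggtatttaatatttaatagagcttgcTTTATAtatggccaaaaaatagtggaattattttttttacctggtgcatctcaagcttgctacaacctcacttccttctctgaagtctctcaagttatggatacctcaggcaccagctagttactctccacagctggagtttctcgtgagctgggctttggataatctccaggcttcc
Slco1a1: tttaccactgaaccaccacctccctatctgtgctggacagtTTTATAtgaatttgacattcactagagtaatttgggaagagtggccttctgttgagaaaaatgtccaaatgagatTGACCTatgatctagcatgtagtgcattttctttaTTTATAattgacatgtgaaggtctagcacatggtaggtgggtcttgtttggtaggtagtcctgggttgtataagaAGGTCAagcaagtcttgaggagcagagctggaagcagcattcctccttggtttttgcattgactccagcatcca
Slco1a4: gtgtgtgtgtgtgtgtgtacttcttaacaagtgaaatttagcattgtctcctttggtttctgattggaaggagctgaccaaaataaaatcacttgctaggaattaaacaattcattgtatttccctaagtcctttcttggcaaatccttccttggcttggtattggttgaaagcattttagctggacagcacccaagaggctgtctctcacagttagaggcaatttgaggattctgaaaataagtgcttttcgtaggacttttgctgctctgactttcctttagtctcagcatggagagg
Slco1b2: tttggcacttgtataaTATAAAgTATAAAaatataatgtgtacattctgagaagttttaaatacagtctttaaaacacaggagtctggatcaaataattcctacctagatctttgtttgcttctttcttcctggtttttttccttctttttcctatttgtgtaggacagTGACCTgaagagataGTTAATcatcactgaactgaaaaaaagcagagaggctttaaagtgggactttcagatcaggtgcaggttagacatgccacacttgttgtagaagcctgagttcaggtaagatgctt
Abcc2: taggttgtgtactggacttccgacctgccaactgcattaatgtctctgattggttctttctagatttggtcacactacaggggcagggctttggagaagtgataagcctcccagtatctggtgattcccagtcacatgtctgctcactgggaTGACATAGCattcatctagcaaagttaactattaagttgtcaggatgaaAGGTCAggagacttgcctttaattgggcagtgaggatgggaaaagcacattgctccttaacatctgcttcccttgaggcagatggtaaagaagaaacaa

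AGGTCA stood in the windows of 5 of the 9 genes (Slc10a1 at its other start, Slco1a1, Slco1b2, Abcb11 and Abcc2), against 16.3% of the 32851 windows in the table. TATAAA stood in 4 (Slc10a1, Slco1a1, Slco1b2 and Abcg5), against 13.6% of windows, and GTTAAT in Slco1b2 only, against 7.10%. The antioxidant response element core stood in Abcc2 and in both listed starts of Abcc4, against 12.4% of windows, and the IR-1 core in none of the 9, against 0.84%. A match is a run of letters and not a binding site, and the absence of one concerns these letters in this window only. Slco1a4 held none of the 5 motifs.

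In AAV-GFP compared with vehicle-treated livers, which asks how the transporters stand in the TAA-injured liver, 3 of the 4 uptake genes fell, 1 of the 2 basolateral genes rose and none of the 4 canalicular genes passed the threshold (edgeR, adjusted p of 0.05 over all genes tested). Of the 9522 genes tested, 5.19% were called lower and 7.54% higher. The median log2 fold change was -0.83 for the uptake, -0.04 for the canalicular and 1.05 for the basolateral genes, against -0.01 for all genes.

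Slco1a1, a carrier of organic anions that is known to be more abundant in male mouse liver, showed the largest fall of the 4 uptake genes in this comparison. Its level was 602, 492, 640, 653 and 671 CPM in the 5 vehicle libraries. In the AAV-GFP libraries the lowest value was 70.0, the median 207 and the highest 454 CPM. All AAV-GFP libraries were below all vehicle libraries, and library 4 was the lowest. The fitted log2 fold change was -1.28 ± 0.30 (SE; adjusted p = 0.00898), a 2.43-fold fall, and the two-sided exact permutation test of mean log2 CPM gave p = 0.00253 (1 of 30 such tests, for 10 genes in 3 comparisons). Every omission of a single library kept this call. It was lost with close pairs of libraries summed (adjusted p = 0.104) and with all 3 groups in 1 fit (adjusted p = 0.0666). Slco1a genes resemble one another, and how the counting treated reads that match several of them is not given in the sources used here, so the values of Slco1a1 and Slco1a4 are uncertain to that extent.

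Slc10a1 was at 212, 252, 188, 224 and 208 CPM in the vehicle libraries. In AAV-GFP livers it ran from 74.3 to 210.2 CPM with a median of 128. Library 6 lay within the vehicle range and the other 6 below it. The log2 fold change was -0.70 ± 0.22 (adjusted p = 0.0395; two-sided exact permutation p = 0.0139). Slco1b2, the mouse counterpart of the human hepatic OATP1B carriers, was at 3485, 3650, 2862, 3699 and 3114 CPM in vehicle-treated livers and at 932 to 3233 CPM, median 1757, in AAV-GFP livers. Again 6 of the 7 AAV-GFP libraries were below all vehicle libraries, with library 7 the exception. Its log2 fold change was -0.75 ± 0.23 (adjusted p = 0.0367; two-sided exact permutation p = 0.0101). Both calls sat near the threshold: that of Slc10a1 was lost without any 1 of the 5 vehicle libraries or of AAV-GFP libraries 1 to 4 (adjusted p up to 0.0927), and that of Slco1b2 without vehicle library 1, 2, 4 or 5 or any of AAV-GFP 1 to 4 (up to 0.0953).

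Slco1a4, a carrier with a wide range of organic anions and cardiac glycosides, was at 32.3, 30.9, 14.2, 34.2 and 13.3 CPM in vehicle-treated livers. In AAV-GFP livers it ran from 5.76 to 21.6 CPM with a median of 14.9. Vehicle libraries 3 and 5 lay well below the other 3, and AAV-GFP libraries 5, 6 and 7 (7.2, 7.5 and 5.8 CPM) below the other 4, so that the groups overlapped. The log2 fold change of -0.92 ± 0.33 did not pass the threshold (adjusted p = 0.0690). It passed without vehicle library 5 or without AAV-GFP library 4, with adjusted p as low as 0.0478.

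Among the basolateral exporters, Abcc3 rose. It was at 11.7, 24.7, 10.7, 18.1 and 10.1 CPM in vehicle-treated livers and at 20.8 to 44.5 CPM, median 31.9, in AAV-GFP livers. AAV-GFP libraries 6 and 7 lay below vehicle library 2, and the other 5 above all vehicle libraries. The log2 fold change was 1.06 ± 0.26 (adjusted p = 0.0118; two-sided exact permutation p = 0.00631), or 2.09-fold, and no omission of a single library ended the call. With close pairs of libraries summed the call was lost (adjusted p = 0.119). Abcc4 was scarce, with 3 to 18 counts in vehicle and 7 to 29 in AAV-GFP libraries, and averaged 2.33 ± 1.27 CPM (SD, n = 5) against 5.00 ± 2.26 (n = 7). Its log2 fold change of 1.04 ± 0.42 was close in size to that of Abcc3 and did not pass the threshold (adjusted p = 0.104).

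Abcc3 is also known in cholangiocytes, and the markers of these cells moved in the same comparison. Of the 8 cholangiocyte markers, 3 could be tested, and Spp1 (log2 fold change 1.31) was among those called higher. Their summed level was 23.1 to 45.2 CPM in vehicle-treated, 60.9 to 105 in AAV-GFP and 53.9 to 125 in AAV-miR-34b/c livers. Cftr had no count in any vehicle library. Their part in the rise of Abcc3 was not tested.

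Markers of other cells moved in this comparison as well, where 7.54% of all genes were called higher and 5.19% lower. Of 8 stellate cell markers 4 were called higher, with a summed level of 369 to 548 CPM in vehicle-treated, 417 to 529 in AAV-GFP and 268 to 481 in AAV-miR-34b/c livers. Dcn, which was not called, was the largest part of this sum, at means of 368, 316 and 259 CPM in that order. Of 11 macrophage markers 4 were called lower, with sums of 519 to 1010, 447 to 729 and 644 to 916 CPM. Of 9 pericentral hepatocyte markers 3 were called lower, and their sums were 4230 to 4845, 2115 to 4268 and 3065 to 3811 CPM. Of 8 periportal markers 1 was called lower, with sums of 7763 to 8160, 6447 to 9081 and 6068 to 8822 CPM. This count of 1 is no result about the list. No marker of these 4 lists was at 0 in a whole group. Of 6 T and B cell markers only Ighm, the gene of an immunoglobulin heavy chain, could be tested, and it was called lower (log2 fold change -1.19). The sums of these 6 were 8.89 to 20.2, 3.88 to 15.04 and 6.71 to 14.7 CPM, and Cd79a was at 0 in all vehicle and all AAV-miR-34b/c libraries. Their part in the transporter levels was not tested.

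None of the canalicular genes passed with edgeR or DESeq2; 1 (Abcc2) was under an unadjusted p of 0.05 with either, and Abcc2 passed with limma-voom (adjusted p = 0.0162). Of all genes tested in this comparison, DESeq2 called 16.4% and limma-voom 28.2% in either direction. Abcc2 was at 160, 212, 177, 156 and 157 CPM in vehicle-treated livers and at 151 to 367 CPM, median 209, in AAV-GFP livers. AAV-GFP libraries 1, 2 and 3 (367, 304 and 321 CPM) stood above all vehicle libraries and the other 4 within or below their range. The log2 fold change was 0.53 ± 0.21 (adjusted p = 0.0958), and it passed without AAV-GFP library 6 (adjusted p = 0.0276). Abcb4 differed by 0.20 ± 0.17, Abcb11 by -0.29 ± 0.17 and Abcg5 by -0.28 ± 0.22 on the log2 scale (adjusted p = 0.459, 0.255 and 0.400). With close pairs of libraries summed, all 4 calls of this comparison were lost (adjusted p = 0.104 for Slco1a1, 0.119 for Abcc3, 0.180 for Slc10a1 and 0.192 for Slco1b2) while the log2 fold changes were -1.19, 0.93, -0.67 and -0.74. With all 3 groups in 1 fit, only Slco1a1 of these lost its call (adjusted p = 0.0666), with the same log2 fold change of -1.28 and an SE of 0.45 in place of 0.30. Without AAV-GFP libraries 6 and 7, Slco1a1, Slco1b2, Slc10a1 and Abcc3 were again called, at -1.76, -1.03, -0.96 and 1.25, and Abcc2 passed as higher (0.71, adjusted p = 0.00474).

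**Figure D2:**
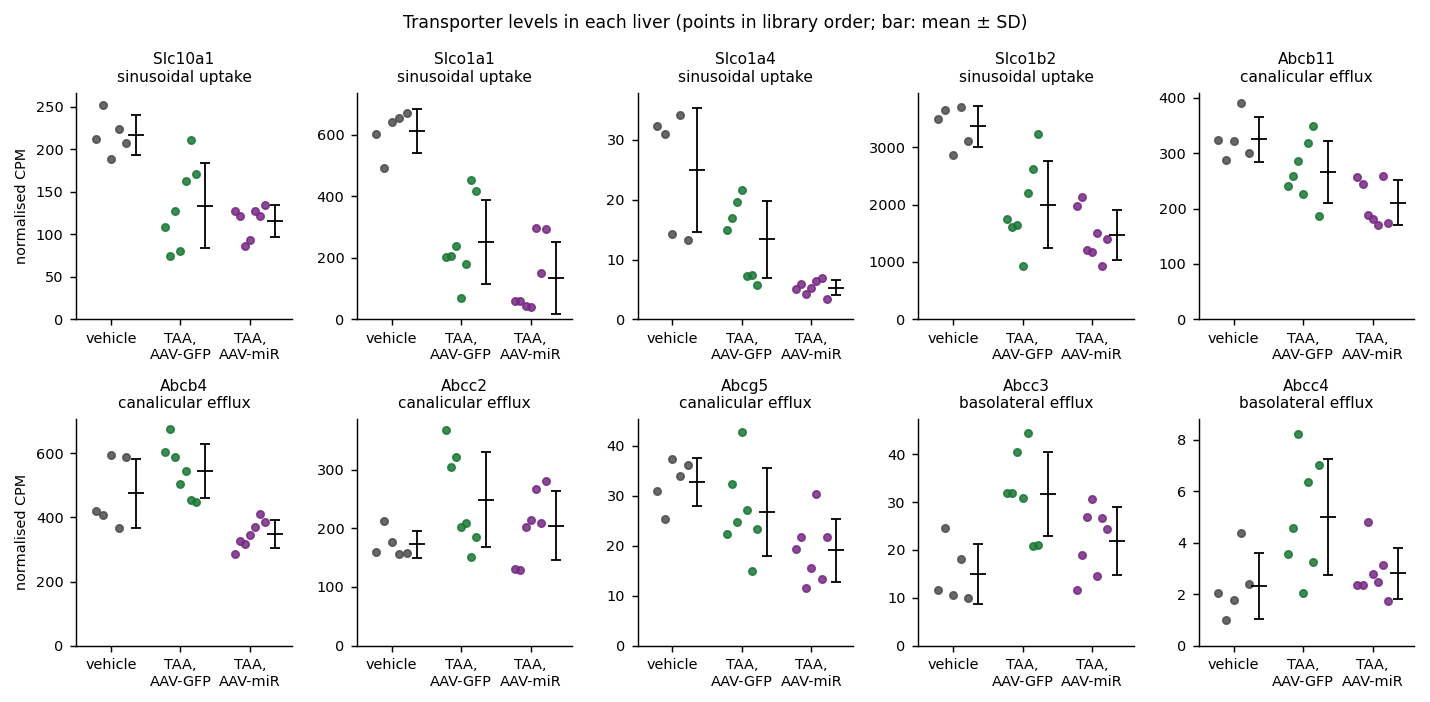
Normalised CPM of the 10 transporters in each library (points, in library order within a group) of the 3 groups, with the mean ± SD as a bar; each panel has its own axis from 0. Slco1a1 separates vehicle (492 CPM or more) from both TAA groups, and Abcb4 separates AAV-miR-34b/c (412 CPM or less) from AAV-GFP (447 CPM or more).

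In AAV-miR-34b/c compared with AAV-GFP livers, both from TAA-treated mice, which asks what the miRNAs delivered to hepatocytes changed, all 9 transporters that could be tested had a fitted log2 fold change below 0, and 2 of them passed the threshold: Abcb4 and Slco1a4. Of the 9252 genes tested, 1.42% were called lower and 1.95% higher. The median log2 fold change was -0.67 for the 4 uptake genes and -0.42 for the 4 canalicular genes, against -0.01 for all genes. With normalization by total count only, the median of all genes shifted to -0.20, and the genes called were 119 higher and 505 lower in place of 180 and 131. Under that scaling Abcb11 passed as well (log2 fold change -0.54, against -0.34 with TMM; adjusted p = 0.0295), and the shift of all genes lies in that value. Without AAV-GFP libraries 6 and 7 the log2 fold change of Slc10a1 was above 0 (0.06, adjusted p = 0.914), and those of Slco1a1 and Slco1b2 were -0.42 and -0.15.

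Abcb4, the phosphatidylcholine flippase whose product protects the biliary tree from bile salts, was at 603, 676, 590, 503, 544, 455 and 447 CPM in AAV-GFP libraries 1 to 7. In AAV-miR-34b/c libraries 1 to 7 it was at 286, 328, 318, 344, 369, 412 and 386 CPM. The highest AAV-miR-34b/c library lay below the lowest AAV-GFP library. The log2 fold change was -0.65 ± 0.13 (adjusted p = 0.00989), a 1.57-fold fall, and the two-sided exact permutation p of 0.000583 is the smallest that 7 libraries against 7 can give.

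Slco1a4 ran from 5.76 to 21.6 CPM (median 14.9) in AAV-GFP and from 3.44 to 6.91 CPM (median 5.17) in AAV-miR-34b/c livers. The overlap came from AAV-GFP library 7 (5.8 CPM), which lay among the AAV-miR-34b/c libraries. The log2 fold change was -1.32 ± 0.31 (adjusted p = 0.0186; two-sided exact permutation p = 0.00350), or 2.50-fold, on 10 to 33 counts per library in the AAV-miR-34b/c group. Leaving out any 1 library kept both calls, whereas both were lost with close pairs summed (adjusted p = 0.187 for each, log2 fold changes -0.58 for Abcb4 and -1.25 for Slco1a4). Both also passed without AAV-GFP libraries 6 and 7 (-0.75 and -1.58) and without AAV-miR-34b/c libraries 1 and 2 (-0.59 and -1.35).

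The other uptake genes overlapped between the 2 TAA groups. Slco1a1 was at 58.7, 60.8, 42.3 and 39.4 CPM in AAV-miR-34b/c libraries 1 to 4 and at 298, 151 and 292 CPM in libraries 5 to 7. Its log2 fold change of -0.91 ± 0.47 did not pass (adjusted p = 0.385), and libraries 5 to 7 lay within the AAV-GFP range. Slco1b2 ran from 924 to 2126 CPM in AAV-miR-34b/c livers and differed by -0.44 ± 0.24, and Slc10a1 by -0.21 ± 0.21 (adjusted p = 0.414 and 0.718).

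The other efflux genes did not pass either. Abcb11 had a log2 fold change of -0.34 ± 0.16 (adjusted p = 0.313) and Abcg5 of -0.50 ± 0.24 (0.328). Abcc2 was at -0.29 ± 0.22 (0.609) and Abcc3 at -0.54 ± 0.23 (0.240). Abcc3 ran from 11.5 to 30.6 CPM in AAV-miR-34b/c livers, between the vehicle and AAV-GFP groups by its mean of 21.9 ± 7.08 CPM (SD, n = 7) and overlapping both. Abcc4 was too low for the filter in this comparison. Without the filter its log2 fold change was -0.80 ± 0.36 (adjusted p = 0.332).

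Neutrophil markers separated part of the AAV-miR-34b/c group: the summed level of 5 markers was 15.6 to 79.6 CPM in vehicle-treated, 14.2 to 72.8 in AAV-GFP and 60.9 to 1898 in AAV-miR-34b/c livers. All 3 that could be tested (S100a8, S100a9 and Retnlg) were called higher, and Ly6g had no count in vehicle libraries. Between the TAA groups, 1.95% of all genes were called higher and 1.42% lower. Of the stellate cell markers, 2 of 8 were called lower there (Col1a1 at -1.92 and Col3a1 at -1.46 on the log2 scale). Called higher were 2 of 11 macrophage markers (Cd5l at 0.86 and C1qb at 0.94), 1 of 8 endothelial markers (Lyve1 at 1.06), 1 of 8 pericentral markers tested (Glul at 0.78) and 1 of 9 hepatocyte markers (Fgb at 1.35). The counts of 1 are no result about their lists. The summed endothelial markers were at 230 to 276 CPM in vehicle-treated, 195 to 268 in AAV-GFP and 241 to 318 in AAV-miR-34b/c livers, and each of them had counts in every group. The part of these markers in the lower transporter levels was not tested.

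The vectors carried miR-34b and miR-34c, which act by pairing of their seed with matching letters in 3′ untranslated regions. The mature miR-34b-5p (chr9:51103610-51103632, minus strand, GRCm38.p6, RefSeq) is shown with its seed, bases 2 to 8, in capitals, beside the match found among the transporters, with the match in capitals.
miR-34b-5p: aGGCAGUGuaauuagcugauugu
Abcc2: tactgagccgtCACTGCCcaaccagagct
A match CACTGCC in the longest annotated 3′ untranslated region was found in 1 of the 10 transporters, Abcc2 (chr19:43840512-43840518, plus strand, exonic, at base 2955 of a region of 3183 bases), against 14.3% of the 21024 genes with such a region. Abcc2 did not pass the threshold between the TAA groups. Abcb4 and Slco1a4, which did, held no match in annotated regions of 51 and 1521 bases. The absence of these letters says nothing of other kinds of pairing.

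**Figure D3:**
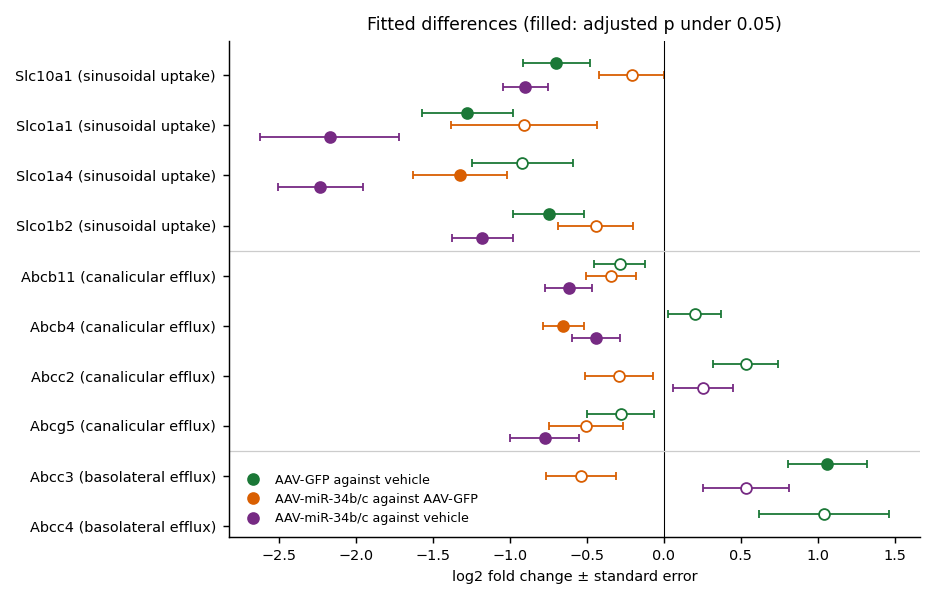
Fitted log2 fold changes ± SE of the 10 transporters in the 3 comparisons, with filled points for an adjusted p under 0.05 over all genes tested and open points otherwise; Abcc4 was tested in AAV-GFP against vehicle only. All 4 uptake genes are filled in AAV-miR-34b/c against vehicle, and Abcc3 is the only gene filled to the right of 0, in AAV-GFP against vehicle.

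In AAV-miR-34b/c compared with vehicle-treated livers, 7 of the 9 transporters tested fell: all 4 uptake genes and 3 of the 4 canalicular genes. None rose with edgeR, with DESeq2 or at an unadjusted p of 0.05 with either, whereas with limma-voom Abcc2 and Abcc3 passed as higher (adjusted p = 0.0403 and 0.0246). Of the 9290 genes tested, 9.75% were called lower and 12.2% higher with edgeR, and 26.2% were called in either direction with DESeq2 and 41.3% with limma-voom. The median log2 fold change was -1.68 for the uptake and -0.53 for the canalicular genes, against 0.02 for all genes. With normalization by total count only, the median of all genes shifted to -0.13, and the calls were 730 higher and 1616 lower in place of 1131 and 906. This comparison shares its vehicle libraries with the first and its AAV-miR-34b/c libraries with the second, so the 3 are not independent. Markers moved here too, with the sums given above: all 3 neutrophil markers tested were called higher (S100a8 at 4.06, S100a9 at 3.87 and Retnlg at 4.47 on the log2 scale), as were 2 of 9 hepatocyte markers (Trf at 0.95 and Fgb at 1.07) and 1 of 3 cholangiocyte markers tested (Sox9 at 1.40). Pericentral markers were called lower in 3 of 8 tested (Oat at -1.12, Lect2 at -0.69 and Cyp2e1 at -0.63). Among the periportal markers reported here, Cps1 was called lower (-0.90) and Hsd17b13 higher (0.57). Of 11 macrophage markers Adgre1 was called lower (-1.22), and of 8 endothelial markers Lyve1 was called higher (1.46) and Cdh5 lower (-1.25). Their part in the transporter levels was not tested.

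Slco1a4 fell by 2.23 ± 0.28 on the log2 scale (adjusted p = 0.000125), or 4.70-fold, and Slco1a1 fell by 2.17 ± 0.45 (adjusted p = 0.00390), or 4.51-fold. For both, every AAV-miR-34b/c library was below every vehicle library. Slco1b2 fell by 1.18 ± 0.20 (adjusted p = 0.00104) and Slc10a1 fell by 0.90 ± 0.15 (adjusted p = 0.000925), also with no overlap of the groups. Slc10a1 was at 86.1 to 134 CPM, median 122, in AAV-miR-34b/c livers. No omission of a single library ended any of these 4 calls. With close pairs summed, Slc10a1, Slco1a4 and Slco1b2 kept theirs (adjusted p = 0.0391, 0.0124 and 0.0380), and Slco1a1 was at 0.0516.

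Abcb11, the main exporter of bile salts, was at 324, 288, 322, 391 and 300 CPM in vehicle-treated and at 171 to 259 CPM, median 188, in AAV-miR-34b/c livers. The groups did not overlap, and the log2 fold change was -0.62 ± 0.15 (adjusted p = 0.00953; two-sided exact permutation p = 0.00505). Abcg5 was at 30.9, 25.3, 37.3, 34.0 and 36.2 CPM in vehicle-treated and at 11.6 to 30.3 CPM, median 19.3, in AAV-miR-34b/c livers, where library 5 alone reached the vehicle range. Its log2 fold change was -0.78 ± 0.22 (adjusted p = 0.0222), and the call was lost without vehicle library 4 or 5 (adjusted p up to 0.0520). Abcg5 overlaps Abcg8 on the other strand and the strand setting of the counting is not given in the sources used here, so reads of both cannot be told apart there. Abcg8 itself had a log2 fold change of -0.63 ± 0.35 (adjusted p = 0.206).

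Abcb4 was at 421, 408, 594, 366 and 588 CPM in vehicle-treated livers, with libraries 3 and 5 above the other 3. Its log2 fold change was -0.44 ± 0.15 (adjusted p = 0.0485), and the call was lost in 10 of 12 omissions of a single library (adjusted p up to 0.137), all but those of vehicle libraries 2 and 4. With close pairs summed, Abcb11, Abcb4 and Abcg5 were no longer called (adjusted p = 0.148, 0.311 and 0.127). Abcc2 (0.25 ± 0.20, adjusted p = 0.366) and Abcc3 (0.53 ± 0.28, adjusted p = 0.174) did not pass and had fold changes above 0. Abcc2 was at 131 and 129 CPM in AAV-miR-34b/c libraries 1 and 2 and at 202 to 281 CPM in the other 5. Without libraries 1 and 2, Abcc2 and Abcc3 passed as higher (0.44 and 0.69, adjusted p = 0.0196 and 0.0388), Abcb4 lost its call (-0.38, adjusted p = 0.0540), and the other 6 genes called lower were called again. Abcc4, below the filter, was at 0.26 ± 0.46 without it (adjusted p = 0.748).

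Libraries of a group also differed in which transporters were low. AAV-GFP libraries 6 and 7 had the highest uptake means of their group (7.73 and 7.62 log2 CPM) and the lowest canalicular means (7.12 and 7.12). In AAV-GFP library 4, Slc10a1 (80.5 CPM), Slco1a1 (70.0 CPM) and Slco1b2 (932 CPM) were near or at the bottom of the group while Slco1a4 (21.6 CPM) and Abcg5 (42.9 CPM) were at its top. Slco1a4 thus did not follow the other uptake genes within this group. In the AAV-miR-34b/c group, libraries 3 and 4 had the lowest uptake means (6.09 and 6.15 log2 CPM), and these are a close pair.

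**Figure D4:**
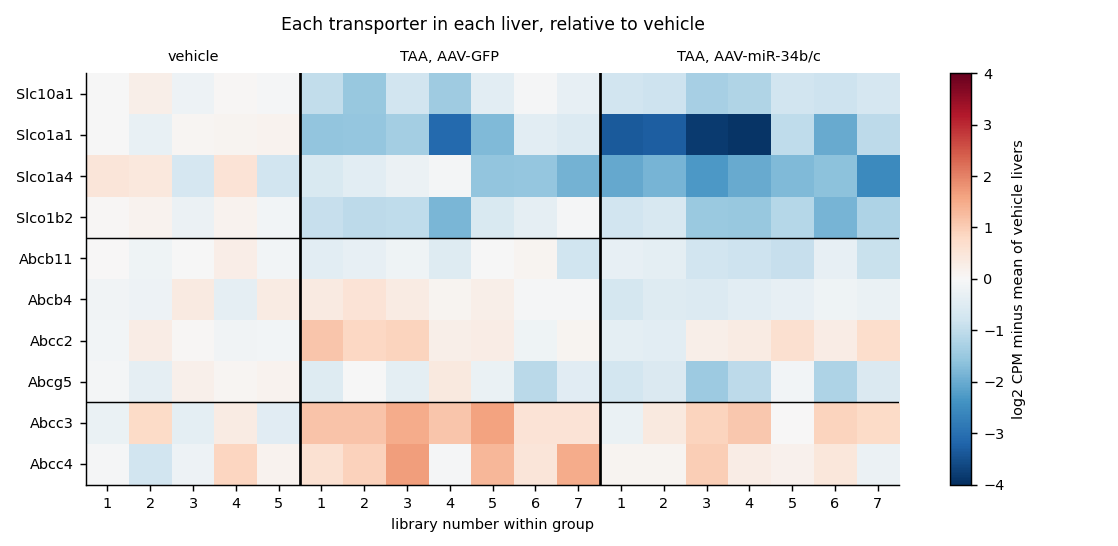
Log2 CPM of each transporter (rows) in each library (columns, by group) minus the mean of the 5 vehicle libraries, with blue for lower and red for higher values. The top 4 rows, the uptake genes, are blue over most of both TAA groups, deepest for Slco1a1 in AAV-miR-34b/c libraries 1 to 4, and Abcc3 is red in all AAV-GFP libraries.

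For each transporter, the 2 or 3 genes whose log2 CPM was most alike over the 19 libraries, of the 6538 other genes with at least 10 CPM on average (6539 for Abcc4), are named as a description. The libraries share group, depth and close pairs, and a maximum over so many genes is high by choice. Slc10a1 was most like Baat, which joins bile acids to taurine or glycine (r = 0.927), the oxysterol hydroxylase Cyp7b1 (0.922) and Selenoo (0.914). Slco1a1 was most like Hsd3b5, a steroid-metabolizing enzyme of male mouse liver (r = 0.925), Mcm10 (0.921) and Gm31583 (0.920). Slco1b2 was most like the hydroxysteroid dehydrogenase Akr1c6 (r = 0.962), the sulfotransferase Sult2a8 (0.954) and Pex7 (0.951). After subtraction of group means, Baat, Hsd3b5 and Akr1c6 kept r of 0.881, 0.920 and 0.919 with their transporters, so these likenesses were present within groups. Slco1a4 was most like Washc4, 2510039O18Rik and Rassf3 (r = 0.816 to 0.828), with r of 0.293 to 0.655 within groups.

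Among the efflux genes, Abcc2 was most like the desmosomal cadherin Dsg2 (r = 0.918), Foxp1 (0.908) and Atxn2 (0.900). Abcb4 was most like Rab14 (r = 0.872) and Bckdha (0.836). For Abcb11 the genes were Inca1, Nat9 and Yars2 (r = 0.792 to 0.815), and for Abcg5 the iron exporter Slc40a1, Mindy1 and Gpr146 (0.736 to 0.784). Abcc3 was most like Gga1, Ccnd2 and Zzef1 (r = 0.807 to 0.812). Abcc4, at few counts, was most like Cggbp1 and the glutathione transferases Gstm4 and Gsta2 (0.660 to 0.676).

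The genes known to regulate these transporters did not move as one. Of 18 receptors and regulators, 17 were tested. With edgeR, 2 were called higher in AAV-GFP against vehicle, where 7.54% of all genes were, so that this count is near the background. In AAV-GFP against vehicle, Nr0b2, which encodes SHP, a repressor induced by FXR, rose by 1.86 ± 0.38 and Hnf4a, a master regulator of hepatocyte genes, by 0.86 ± 0.18 on the log2 scale (adjusted p = 0.00465 and 0.00538). None fell with edgeR or DESeq2 (3 at an unadjusted p under 0.05 with each), and 2 did with limma-voom (Nr1h3 and Nr1h4). Between the TAA groups none of the 17 passed with edgeR (4 at an unadjusted p under 0.05), 1 did with DESeq2 (Nfe2l2, the gene of NRF2) and 2 with limma-voom (Nfe2l2 and Keap1), where these tools called 5.86% and 8.79% of all genes. In AAV-miR-34b/c against vehicle, 3 of 17 rose and 2 fell, where 12.2% of all genes were called higher and 9.75% lower, so that these counts are near the background. Hnf4a rose by 1.21 ± 0.15, Keap1, the gene of the NRF2 inhibitor, by 0.58 ± 0.18 and Nr0b2 by 1.77 ± 0.59. Nr1i3, the gene of CAR, fell from 57.1 ± 14.4 CPM (SD, n = 5) to 28.3 ± 9.63 (n = 7). Nr1h4, the gene of FXR, had a log2 fold change of -0.80 ± 0.20 (adjusted p = 0.00948). Nr1h4 was at 79.0 to 98.6 CPM in vehicle-treated, 41.1 to 94.7 in AAV-GFP and 27.1 to 67.9 in AAV-miR-34b/c livers.

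Of 9 NRF2 target genes, Gclc, which encodes the catalytic subunit of glutamate cysteine ligase, was the only one called with edgeR. Gclc rose by 1.53 ± 0.16 in AAV-GFP against vehicle (adjusted p = 6.92e-06) and fell by 1.31 ± 0.14 in AAV-miR-34b/c against AAV-GFP (adjusted p = 2.97e-05). It was 1 of 8 tested in the former, where 7.54% of all genes were called higher, so that this count is no result about the list. Between the TAA groups it was 1 of 9, where 1.42% of all genes were called lower. Of 5 CAR and PXR targets, 4 were tested. With edgeR, 1 was called higher and 1 lower in AAV-GFP against vehicle, where 7.54% and 5.19% of all genes were. In AAV-miR-34b/c against vehicle 2 were called lower, where 9.75% of all genes were. Cyp3a11 rose by 1.06 ± 0.27 and Por fell by 1.28 ± 0.16 in AAV-GFP against vehicle (adjusted p = 0.0150 and 5.36e-05), none passed between the TAA groups with edgeR or DESeq2 (1 at an unadjusted p under 0.05 with each, and Cyp3a11 passed as lower with limma-voom), and Alas1 and Por fell by 1.02 ± 0.18 and 0.87 ± 0.24 in AAV-miR-34b/c against vehicle. None of 9 genes of canalicular scaffolding and trafficking passed with edgeR in any of the 3 comparisons. In the order above, 3, 1 and 2 of them were under an unadjusted p of 0.05, DESeq2 called 0, 1 and 1, and limma-voom called 3, 1 and 2. The shares of all genes called were 16.4%, 5.86% and 26.2% with DESeq2 and 28.2%, 8.79% and 41.3% with limma-voom, so that these counts are no result about the list.

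Of 25 other transporters, 18 were tested in AAV-GFP against vehicle and 17 in the other comparisons. With edgeR, 3 were called higher and 2 lower in AAV-GFP against vehicle, where 7.54% and 5.19% of all genes were. Between the TAA groups these counts were 3 and 1, where 1.95% and 1.42% of all genes were called. In AAV-miR-34b/c against vehicle they were 3 and 2, not all named here, against 12.2% and 9.75%, and so near the background. In AAV-GFP livers, Slco2a1 (0.91 ± 0.22), Slco2b1 (0.56 ± 0.17) and the cation exporter Slc47a1 (0.47 ± 0.15) rose and Slc22a7 (OAT2, -0.85 ± 0.24) and the flippase subunit Tmem30a (-0.77 ± 0.21) fell. Between the TAA groups, Slc22a7 (1.09 ± 0.22), Slc10a2 (ASBT, the apical bile acid carrier, 0.86 ± 0.20) and Atp8b1 (FIC1, a canalicular flippase, 0.73 ± 0.17) rose and Abcg2 (BCRP, -0.57 ± 0.15) fell in AAV-miR-34b/c livers. Slc22a7 averaged 25.7 ± 5.92 CPM in vehicle-treated (SD, n = 5), 14.2 ± 4.77 in AAV-GFP (n = 7) and 30.4 ± 8.38 in AAV-miR-34b/c livers (n = 7). Against vehicle, AAV-miR-34b/c livers had higher Atp8b1 (1.03 ± 0.18), Slco2b1 (0.67 ± 0.15) and Slc10a2 (1.19 ± 0.27) and lower Abcg2 (-0.56 ± 0.13). The median log2 fold change of the list was 0.28, -0.25 and 0.06 in the 3 comparisons in the order above, against -0.01, -0.01 and 0.02 for all genes. Slc51a and Slco1a6 had no count in any library.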

How the data were processed

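Libraries were made from 100 ng of liver RNA per the labels (QuantSeq, 3′ ends of polyadenylated transcripts, 100 bases single-end), so counts depend little on gene length. The authors deposited 1 table of whole-number counts per gene for all 19 libraries, without normalization, made with the provider's pipeline of filtering, trimming, alignment and counting. The submitters' processing notes name STAR and mm10, and their versions, the strand used in counting and any molecular identifiers are not given in the sources used here. The SD and SE values given here include the spread between libraries. Column names matched the titles, and no other column was present.

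Each comparison was fitted with edgeR 4.0.16 in R 4.3.3 (TMM, filterByExpr at a count minimum of 10 and a total minimum of 15, glmQLFit, glmQLFTest) on its 2 groups without covariates, with Benjamini-Hochberg adjustment over all genes tested and a threshold of 0.05. SE is the absolute log2 fold change divided by the root of F. CPM are TMM-scaled, and log2 CPM has a prior count of 2. Single genes were also tested by exact permutation of mean log2 CPM (30 tests). The fit was tested on simulated data. Named are the 10 transporters, genes of the fixed lists that passed (up to 4 per list and comparison by smallest adjusted p; where 5 passed, the last was added after its values were seen) and the 3 genes most like each transporter, apart from a few genes that are not reported here. Cell type markers are given where they touch a result.

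The transporters and lists were chosen with earlier results of these data known. Symbols and positions came from GENCODE for GRCm38, and sequences from RefSeq (GRCm38.p6) and GENCODE transcripts. Alternatives were no filter, 10 counts in every library, DESeq2 size factors, total count only, DESeq2 1.42.0, limma-voom (limma 3.58.1), all groups in 1 fit, a replicate block, single libraries left out, close pairs summed (coefficient of variation under 0.2), a prior count of 0.5 and, added after seeing the data, the libraries that stood apart left out.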

Additional observations from a re-analysis of the deposited data

Results flagged for a closer look

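AAV-GFP library 5 had a total of 4383805 counts, and the next highest of its group had 3239809, a gap of 0.596 of the group's range, which is beyond Dixon's 95% limit for 7 libraries. It was the only one set apart in this way among 33 sets of values (the log2 CPM of the 10 transporters and the total counts, each in 3 groups), of which chance would set apart about 1 in 20. In this library the transporter levels lay within the range of the other AAV-GFP libraries except for Abcc3, which was highest in it at 44.5 CPM.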

How the results depend on the processing

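The number of genes called in AAV-GFP against vehicle (1212), AAV-miR-34b/c against AAV-GFP (311) and AAV-miR-34b/c against vehicle (2037) moved to 2687, 813 and 3839 with limma-voom and sample quality weights, and to 227, 87 and 331 with close pairs of libraries summed, where fewer samples were fitted. It was 542 with DESeq2 and 624 by total count only between the TAA groups. Leaving out 1 library gave 689 to 1859, 209 to 344 and 1267 to 2695. Without vehicle library 1 or 4 it was 728 and 689 in AAV-GFP against vehicle and 1328 and 1267 in AAV-miR-34b/c against vehicle, and in the former it was 806 without AAV-GFP library 3 and 1859 without AAV-GFP library 6. With the replicate number as a block it was 3088, 142 and 922; against vehicle this fit held only the 5 numbers shared with vehicle, without libraries 6 and 7 of the AAV group. Without AAV-GFP libraries 6 and 7 and with no block it was 2880 against vehicle and 397 between the TAA groups, and without AAV-miR-34b/c libraries 1 and 2 it was 720 between the TAA groups and 3878 against vehicle (both chosen after seeing the data). The numbers do not pair the libraries: correlations of same-numbered deviations ran from -0.285 to 0.277 over the 3 comparisons, and 2 of 5, 1 of 7 and 0 of 5 libraries were most like the one of their own number. In the fits with the block, Slco1a4 and Abcb4 had adjusted p = 0.0880 and 0.0861 between the TAA groups, Abcb4 and Abcg5 0.0941 and 0.0706 in AAV-miR-34b/c against vehicle, and Slco1a4 and Abcc2 passed in AAV-GFP against vehicle (0.0428 and 0.00252). Over all settings other than single libraries, the fitted fold changes of the transporters kept direction and side of the threshold in 89 of 99, 92 of 99 and 78 of 90 values, and 1 changed direction, Slc10a1 between the TAA groups without AAV-GFP libraries 6 and 7 (log2 fold change 0.0571). Without the filter, Slco1a4 passed in AAV-GFP against vehicle (adjusted p = 0.0403) and Abcb4 did not in AAV-miR-34b/c against vehicle (0.0876). With limma-voom, Abcb11 passed between the TAA groups (0.0294). By total count only, the exact permutation tests of Slco1a1, Slco1b2, Abcb11 and Abcg5 between the TAA groups gave p = 0.0449, 0.0373, 0.0035 and 0.0326. The causes of these differences were not tested. Depth limits Abcc4, with 3 to 29 counts per library.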
